A study of Mus musculus with 4 samples.

Results

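Lrp4, Agrn, Musk, Dok7, Rapsn, Colq and Ache encode the proteins that organise the muscle side of the neuromuscular synapse. They were taken as all probes, other than control spots, that the array annotation assigns to these 7 of 21164 gene names, which gave 12 probes of the 41174 on the array. Of these, 8 probes of 5 genes were well above background, by the scanner software's own flag, in one and the same channel, on 3 or 4 of the 4 arrays. The other 4 probes, which include the only probes for Colq and Ache, were near background. The genes were chosen because Lrp4 was already known to be among the most regular differences in these data. Their follistatin over untreated ratios therefore chose them, and are given as a description without a test.

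The cells were C2C12, an immortal line of mouse myoblasts, whose cells join into myotubes once serum is lowered. They were grown to 80% confluence and differentiated for 6 days, with 200 ng/ml of recombinant human follistatin 288 added every 24 h in the treated cultures and nothing added in the untreated ones. The growth protocol names 2% horse serum for both, while the source names give 10%. Follistatin binds and blocks activins and myostatin. Each of 4 replicates, called biological in the labels, was 1 two-colour array that carried the follistatin sample in Cy3 and the untreated sample in Cy5, so a dye effect of a single gene adds to its ratio. The labels call all 4 arrays dye swaps, but define the term as this 1 orientation, and the direction of every ratio rests on it. Such cultures hold no nerve, and a lower signal from fewer myotubes cannot be told apart from less RNA per myotube.

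At the synapse, motor neurons and muscle secrete agrin, which binds the receptor Lrp4 on the muscle membrane. Lrp4 then activates the receptor tyrosine kinase MuSK, with Dok7 as MuSK's cytoplasmic adaptor and activator, and rapsyn, the product of Rapsn, clusters acetylcholine receptors beneath the nerve ending. ColQ is the collagen tail that anchors acetylcholinesterase, the product of Ache, in the synaptic basal lamina. Agrin is found in several forms, and the form that activates MuSK most strongly is made by neurons.

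The probe sequences show which part of each transcript was read. Positions are those of the annotation, in mouse build mm9; no exon annotation of that build was used here. The bright Lrp4 probe and the faint one are shown by their first 30 bases, with stop triplets in any frame in capitals. They were designed on different transcripts and gave different ratios. Whether either also reads the other transcript was not checked. The first 30 bases of the only bright Agrn probe are given in the same way.
Lrp4 probe 1: gTAGaaaggacgaattTGAggaaatatcta
Lrp4 probe 2: tgTAAgagtctgctcttgtttccaggacgc
Agrn probe 1: TGAtccgaggcTAGagggagctgcatggta
Lrp4 probe 1 lay at chr2:91353832-91353891, base 7801 of transcript NM_172668, and Lrp4 probe 2 at chr2:91318585-91318644, base 2386 of transcript variant NM_001145857. Over their whole 60 bases both had a stop codon in all 3 forward frames. Agrn probe 1 lay at chr4:155539434-155539493 on the minus strand, base 7284 of NM_021604. Agrn probe 3 began at base 510 of that same transcript, and its 60 bases spread over 10168 bases of the genome, so it crossed a splice junction.

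The next 2 probes are printed whole. In Musk probe 2, capitals mark the tyrosine codons of an open frame. This stretch encodes part of the activation loop of the MuSK kinase, whose tyrosines are phosphorylated when the receptor is switched on. In the Ache probe, capitals mark the tryptophan codons of an open frame in the stretch that encodes the C-terminal tail of the synaptic form, through which the enzyme attaches to ColQ.
Musk probe 2: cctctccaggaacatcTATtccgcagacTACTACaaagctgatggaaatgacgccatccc
Ache: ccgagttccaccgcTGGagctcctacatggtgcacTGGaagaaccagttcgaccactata
Musk probe 2 lay at chr4:58386210-58386269 and the Ache probe at chr5:137735378-137735437. Musk probe 1 (chr4:58386538-58390272) and the Rapsn probe (chr2:90883848-90885002) spread over 3735 and 1155 bases of the genome and also crossed splice junctions. The Dok7 probes lay at chr5:35423495-35423554 (probe 1) and chr5:35430382-35430441 (probe 2). The Colq probe (chr14:32367438-32367497, minus strand) was designed on AK037656, a RIKEN clone whose number is a RefSeq synonym of Colq.

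The 4 arrays were not alike. Across 26985 probes, which are not independent replicates, the log2 ratios of replicates 2 and 3 correlated at r = 0.817, against 0.0378 to 0.318 for the other 5 pairs. Slide 1 held replicates 1, 2 and 3, and slide 2 held replicate 4. Between 61.1% and 65.2% of non-control spots were well above background for follistatin, and between 61.4% and 69.4% for untreated cells. All 10 myotube markers, among them Myog, Ckm and Myh3, were well above background in both channels on 4 of 4 arrays. Of 7 motor neuron markers, 4 were well above background on no array. The others were well above background in each channel, Tubb3 on 4 arrays, Chat on 3 and Slc18a3 on 1. Of the 4 endothelial and blood markers, Pecam1, Cdh5 and Ptprc were on none, while Cd68 was on 4 of 4 arrays in both channels. All 5 Schwann cell markers were measured, with summed signals of 401 to 614 for follistatin and 446 to 589 for untreated cells. Their part in the results was not tested. Precision was limited by the number of arrays.

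Across all 27016 probes tested, limma called 2, or 0.0074%, at an adjusted p under 0.05, both lower and neither of them a synapse organiser. These were the probes of Olfr1299, an olfactory receptor, and Ces3b, a carboxylesterase, named here after their values were seen (limma adjusted p = 0.0111 for both). Both were well above background in the untreated channel on 4 arrays and in the follistatin channel on 0, and normexp and loess processing called 0. At an unadjusted p under 0.05, limma gave 2684 higher probes (9.93%) and 2922 lower probes (10.8%). Replicates 2 and 3, which resembled each other, entered as separate samples. The share in either direction was 20.8%, against 11.4% with replicates 2 and 3 averaged. It was 6.7% with replicates 1 and 4 alone. The median log2 ratio of all tested probes was 0.014.

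Lrp4 was higher with follistatin on every array, and by nearly the same factor each time. The bright probe had processed signals of 10960, 14420, 12250 and 15700 in follistatin-treated cells, against 5036, 7215, 6315 and 8068 in untreated cells, for replicates 1 to 4. Every follistatin value lay above every untreated value, a separation in the higher direction that 6.71% of all tested probes had. The fold changes were 2.18, 2.00, 1.94 and 1.95, and the log2 ratio was 1.01 ± 0.077 (SD, n = 4). It ranked 435 among the 27016 tested probes from the highest mean ratio down. Its SD over the arrays was lower than that of all but 1.03% of tested probes, whose median SD was 0.427. The scanner software's own error for 1 spot of this probe was 0.222 to 0.228 on the log2 scale, larger than the spread between arrays. The mean stayed between 0.97 and 1.03 when any 1 array was left out, and the 3 arrays of slide 1 alone gave 1.03 against 0.96 on slide 2.

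**Figure D1:**
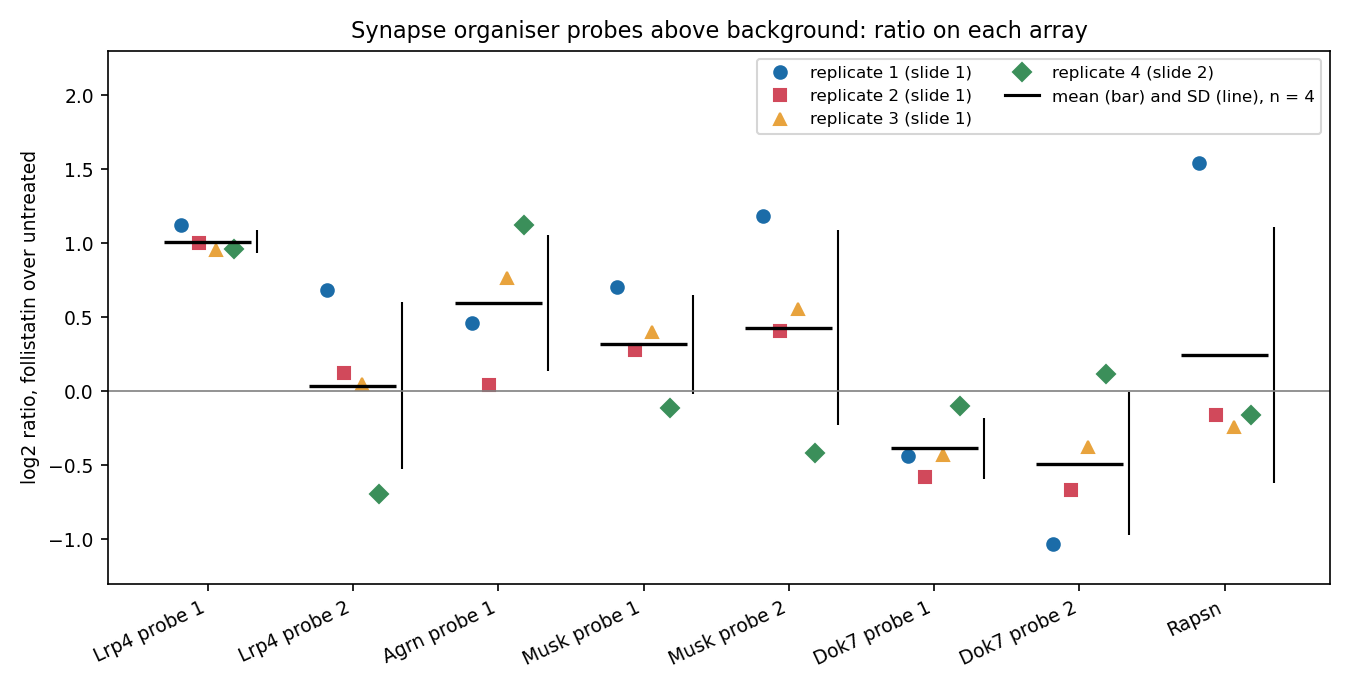
The vertical axis is the log2 ratio of follistatin over untreated processed signal, and the horizontal axis lists the 8 probes well above background. Each symbol is 1 array, black bars are means and thin lines are SDs (n = 4). The 4 values of Lrp4 probe 1 lie between 0.96 and 1.12, while Rapsn has 1 array at 1.55 and 3 below 0.

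The second Lrp4 probe, which was designed on the transcript variant, was faint and did not share this pattern. Its signals were 40.4, 40.69, 41.18 and 35.01 in follistatin-treated cells and 25.17, 37.41, 39.87 and 56.71 in untreated cells, although the untreated value of replicate 1 was not well above background. The channels overlapped, and the log2 ratio was 0.039 ± 0.57 (SD, n = 4), from 0.68 on replicate 1 to -0.70 on replicate 4. With normexp and loess its mean was -0.028, without replicate 1 it was -0.18, and without replicate 4 it was 0.28. The 2-fold difference was therefore seen on 1 of 2 Lrp4 probes, and the untreated signal of the other was the part that varied.

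Agrn, the secreted ligand of Lrp4, was higher on 4 of 4 arrays by very unequal amounts. Its bright probe, at base 7284, had signals of 9881, 8709, 13910 and 9048 in follistatin-treated cells and 7183, 8457, 8188 and 4157 in untreated cells. All 4 follistatin values lay above the highest untreated value, the smallest gap being 8709 against 8457. Of all tested probes, 6.71% had such a separation in the higher direction, and 13.7% were higher on every array. The fold changes were 1.38, 1.03, 1.70 and 2.18, giving a log2 ratio of 0.60 ± 0.46 (SD, n = 4). On replicate 2 the log2 ratio was 0.0425, smaller than the scanner error of 0.204 for that spot, so the sign there was not resolved. The highest ratio was that of replicate 4, where the untreated signal was the lowest of the 4, and without this array the mean was 0.42.

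The probes for the other stretches of Agrn were near background. Agrn probe 3, at base 510 of the same transcript, had signals of 6.17 to 8.38 in follistatin-treated cells and 6.15 to 12.7 in untreated cells. Agrn probe 2, designed on the clone AK147577, had 5.37 to 13.2 in follistatin-treated cells and 10.4 to 21.6 in untreated cells. Both stayed near background in both channels on all 4 arrays, so no fold is given for them. The bright Agrn signal thus came from the probe nearest the end of the transcript among those on the array.

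Musk, the kinase of the complex, was higher on the 3 arrays of slide 1 and lower on the array of slide 2, on both of its probes. Probe 1 had signals of 251, 271, 292 and 308 in follistatin-treated cells against 154, 223, 222 and 333 in untreated cells. Probe 2, over the activation loop, had 290, 249, 259 and 295 in follistatin-treated cells against 128, 188, 176 and 394 in untreated cells. The follistatin values stayed within a narrow band on both probes, with an SD of 0.13 and 0.12 on the log2 scale, while the untreated values had an SD of 0.45 and 0.69. The channels overlapped. The log2 ratios were 0.32 ± 0.34 and 0.43 ± 0.66 (SD, n = 4), so neither mean exceeded its own spread. Both probes placed the arrays in the same order, with replicate 1 highest, at 0.70 and 1.18, and replicate 4 lowest, at -0.11 and -0.42. On replicate 4 the scanner error of the spot was 0.207 for probe 1, larger than the departure of its ratio from no change. For probe 2 it was 0.21, smaller than that departure. Within slide 1 the means were 0.46 and 0.71, and without replicate 1 they were 0.19 and 0.18. With normexp and loess on 4 arrays they were 0.12 and 0.11.

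Dok7, which binds MuSK inside the cell, was lower with follistatin on slide 1 on both probes. The brighter probe had signals of 11520, 11220, 12070 and 13920 in follistatin-treated cells against 15560, 16740, 16290 and 14870 in untreated cells. Every untreated value lay above every follistatin value, a separation in the lower direction that 6.76% of all tested probes had. The log2 ratio was -0.38 ± 0.20 (SD, n = 4), from -0.58 on replicate 2 to -0.096 on replicate 4. The scanner error of the replicate 4 spot was 0.204, larger than the departure of its ratio from no change. The dimmer probe had 1263, 1324, 1621 and 1546 in follistatin-treated cells against 2574, 2098, 2101 and 1427 in untreated cells. These channels overlapped through replicate 4, whose ratio was 0.12, and the mean was -0.49 ± 0.48 (SD, n = 4), or -0.31 without replicate 1. On both probes the smallest departure from no change was on slide 2.

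**Figure D2:**
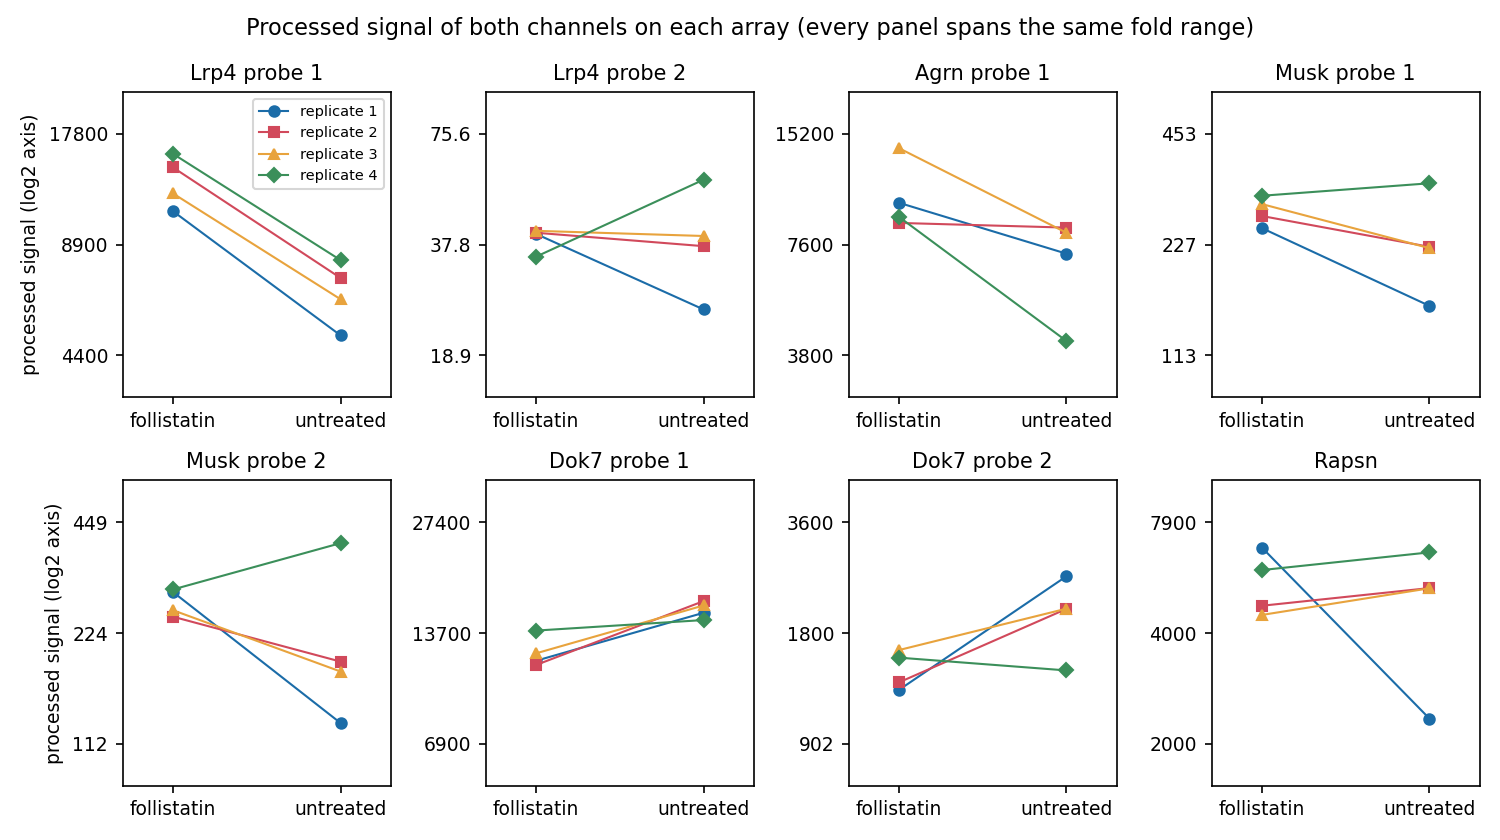
Each panel is 1 probe, with the follistatin channel on the left and the untreated channel on the right, the processed signal on a log2 axis and 1 line per array. For Musk the follistatin points lie close together, at 249 to 295 on probe 2, while the untreated points spread from 128 to 394. All lines of Lrp4 probe 1 run nearly parallel.

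Rapsn, the receptor-clustering protein, had a ratio that rested on 1 array. Its signals were 6773, 4704, 4441 and 5882 in follistatin-treated cells against 2320, 5255, 5248 and 6571 in untreated cells. The untreated value of replicate 1 was below 0.5 of any other untreated value, and the other 3 arrays had slightly lower signals with follistatin. The log2 ratio was 1.55 on replicate 1, while the other arrays gave -0.24 to -0.16, with a mean of 0.25 ± 0.87 (SD, n = 4). Without replicate 1 the mean was -0.19, and without replicate 2, 3 or 4 it was 0.38, 0.41 and 0.38. Normexp and loess gave 1.49 on replicate 1 and 0.23 as the mean.

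The median of the myotube markers, like Rapsn, was above 0 on replicate 1 and below 0 on the other arrays, but not every marker divided this way. This median log2 ratio over the 10 markers was 0.62 on replicate 1, against -0.39, -0.64 and -0.52 on replicates 2, 3 and 4. On replicate 1, 7 of the 10 were above 0, from Myh3 at 0.35 to desmin (Des) at 1.75. The other 3 were lower on 4 of 4 arrays on the probe used. Their replicate 1 values were -0.12 for the transcription factor Myog, -0.33 for the myosin Myh8 and -0.77 for the troponin Tnnc2. Myh8 had 3 tested probes, whose means ran from -0.40 to 0.48. On replicates 2, 3 and 4, by the probe used, 2 values were above 0, Tnnt3 at 0.42 on replicate 2 and Mymk at 0.34 on replicate 4. Both Musk probes were also highest on replicate 1. The summed signal of these markers was 998900 to 1457000 in follistatin-treated cells and 1605000 to 1909000 in untreated cells. On replicate 1 it was also lower with follistatin, at 1457000 against 1605000. Lrp4 probe 1 was at 0.96 to 1.00 on the arrays where the markers were below 0. The part of the markers in the Rapsn and Musk ratios was not tested.

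**Figure D3:**
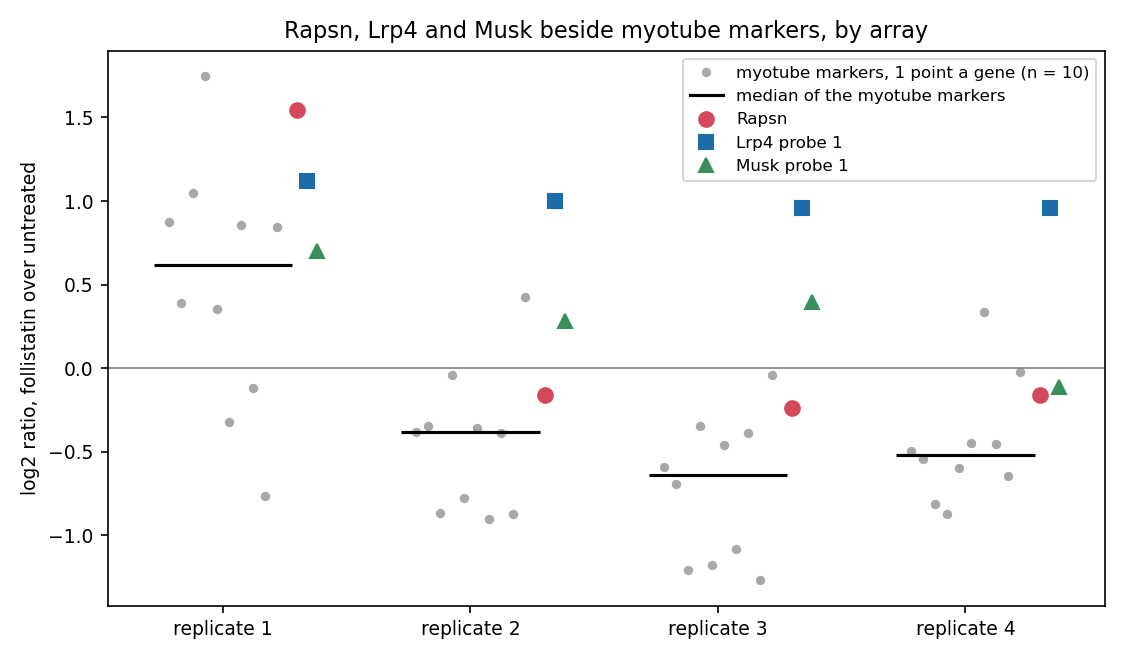
The vertical axis is the log2 ratio of follistatin over untreated signal on each of the 4 arrays. Grey points are the 10 myotube markers, black bars their median, and coloured symbols Rapsn, Lrp4 probe 1 and Musk probe 1. Rapsn and the marker median are above 0 on replicate 1 and below 0 on the other arrays, while Lrp4 stays near 1.

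Colq and Ache, the anchor and the enzyme of the synaptic esterase, were not measured well enough for a ratio. Colq had signals of 9.76, 12.6, 11.9 and 14.7 in follistatin-treated cells and 12.5, 19.1, 25.1 and 17.4 in untreated cells. It was well above background on 2 arrays in the untreated channel and on 0 in the follistatin channel, and the bound on the difference came out under 1-fold, so no fold is given. Ache had 22.3, 11.3, 12.4 and 14.2 in follistatin-treated cells and 6.89, 19.6, 12.3 and 17.5 in untreated cells, well above background on none. Its processed-signal log2 ratio ran from -0.80 to 1.69 over arrays, with a scanner error of 0.62 to 0.98 for a single spot. A difference in either gene was not detectable at this signal over background.

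**Figure D4:**
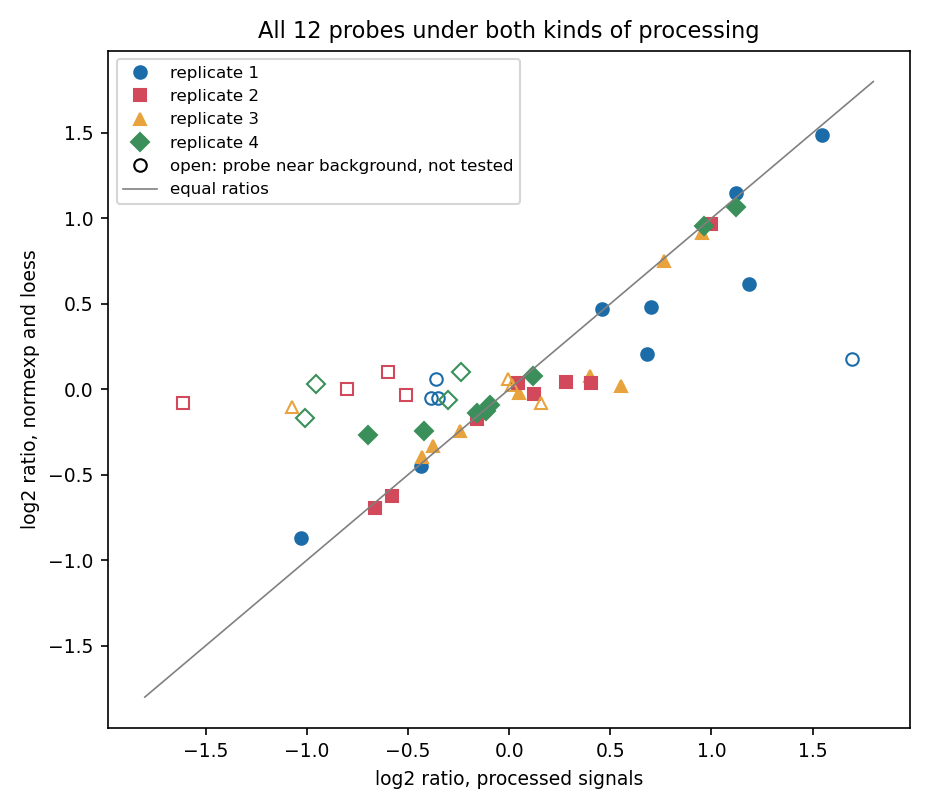
Each point is 1 of the 12 probes on 1 array, with the log2 ratio from processed signals on the horizontal axis and that from normexp and loess on the vertical axis. The grey line marks equal ratios. Points of bright probes such as Lrp4 probe 1 lie near the line, those of Musk and Lrp4 probe 2 mostly lie closer to 0 vertically, with Musk probe 1 on replicate 4 at -0.11 and -0.13, and the open symbols of Colq, Ache and the faint Agrn probes spread horizontally, from -1.61 to 1.69, and lie near 0 vertically.

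By the brightest tested probe of each gene, the order of mean ratios was Lrp4, Agrn, Musk, Rapsn and Dok7. No neighbours in this order differed beyond the spread of their difference over arrays. Lrp4 exceeded Agrn by 0.41 ± 0.50 (SD, n = 4) on the log2 scale. Agrn exceeded Musk by 0.28 ± 0.70, Musk exceeded Rapsn by 0.071 ± 0.66 and Rapsn exceeded Dok7 by 0.63 ± 0.92. The median of the 5 genes was 0.32, beside 0.016 for all 14996 genes by their brightest probe. Of the 8 tested probes, 3 had 1 sign on all 4 arrays, Lrp4 probe 1 and Agrn probe 1 higher and Dok7 probe 1 lower, beside 28.3% of all tested probes. Within slide 1, 7 of the 8 had 1 sign, all but Rapsn, beside 51.1% of all tested probes. On the arrays other than replicate 1 it was 4 of the 8, beside 44.5%. By its mean, 1 of the 8, Lrp4 probe 1, was over 1.6-fold higher, beside 6.49% of all tested probes, and 0 were over 1.6-fold lower, beside 9.34%. The contrast itself chose these genes, so nothing is read from these counts.

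The genes whose ratios were nearest to those of Lrp4 probe 1 over the 4 arrays, among 14983 genes measured on all of them, were Ulbp1, Cfhr2, C1s1, Adam17 and Top2a. Likeness was the root mean square difference of the log2 ratios over the 4 arrays, which was 0.0867 for Ulbp1, 0.117 for both Cfhr2 and C1s1, 0.144 for Adam17 and 0.146 for Top2a. Ulbp1 is a ligand of the natural killer cell receptor NKG2D, Cfhr2 a complement factor H relative, C1s1 a complement protease, Adam17 a membrane sheddase and Top2a the topoisomerase of dividing cells. Their mean log2 ratios lay between 0.87 and 1.06.

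The rest of the synaptic pathway was described from 8 lists chosen by role, with 83 genes in all, of which 78 were tested. Limma called 0 of the 78 in either direction, beside 0.0074% of all tested probes. At an unadjusted p under 0.05, limma gave 13 higher and 5 lower, beside 9.14% and 7.58% of all genes. The median of the 78 was 0.14, and it was 0.21, 0.24, 0.13 and -0.022 on replicates 1 to 4. On all 4 arrays 14 were higher and 7 lower, beside 14.2% and 13.3% of all genes. Replicates 2 and 3 entered these counts as separate samples, although they resembled each other. Without replicate 2 or without replicate 3, 8 of the 78 (10.3%) had an unadjusted p under 0.05, beside 11.7% and 9.53% of all tested probes. Within slide 1 it was 26 (33.3%), beside 28.3% of all tested probes. These last background shares are over probes, not over genes as before. On 4 arrays, 23.1% of the 78 had an unadjusted p under 0.05 by limma, beside 20.8% of all tested probes.

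Acetylcholine receptor subunits, the cargo that rapsyn clusters, had ratios of both signs. Chrnb1, the beta subunit, had log2 ratios of 0.97, 0.69, 1.09 and 0.14, higher on every array, with a mean of 0.72 (SE 0.21, limma adjusted p = 0.152). Chrng, the gamma subunit of the embryonic receptor, had -0.23, -1.07, -1.27 and -0.25, lower on every array, with a mean of -0.70 (SE 0.24, limma adjusted p = 0.184), and its other probe was at -0.33. Chrnd, the delta subunit, was at -0.15 ± 0.15 (SD, n = 4), and Chrna1, the alpha subunit that binds acetylcholine, at 0.23 ± 0.32. The fifth, Chrne, the epsilon subunit of the adult receptor, was at -0.11 ± 0.47, with its other probe at 0.33. None passed the test.

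Of the 29 proteins that act with or after MuSK, 21 had a positive and 8 a negative mean, and 0 passed. The median of the list was 0.16, beside 0.016 for all genes. By array it was 0.19, 0.34, 0.33 and -0.074 on replicates 1 to 4. Cttn, the actin-binding cortactin, had the highest mean, 0.78, but was at -0.54 on replicate 4. Yes1, a Src-family kinase, was at 0.75 ± 0.41 (SD, n = 4) and higher on 4 of 4 arrays. Rac1, the small GTPase that agrin activates, had the lowest mean, -0.41 ± 0.17, lower on 4 of 4 arrays, although its other probe was at -0.0015. Ptpn11, the phosphatase Shp2, was at -0.31 ± 0.16, its 3 probes spanning -0.73 to -0.12.

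The list of synaptic basal lamina and agrin-processing genes had the highest median of the 8, 0.50 over 9 genes, beside 0.016 for all genes. In it 4 genes were higher on 4 of 4 arrays and 0 lower, beside 14.2% and 13.3% of all genes. Lama2, a laminin alpha chain around muscle fibres, was at 1.33 (SE 0.22, limma adjusted p = 0.102), from 0.86 to 1.92, and its other tested probe was higher still. Mmp3, a metalloproteinase that can remove agrin from the synaptic basal lamina, was at 0.99 (SE 0.21, limma adjusted p = 0.109). Prss12, neurotrypsin, the protease that cleaves agrin, was at -0.70 ± 0.55 (SD, n = 4), below -0.70 on replicates 1, 2 and 3 and at 0.068 on replicate 4. Lamb2, the synaptic laminin chain, was at -0.012 ± 0.74. Summed signals of the 4 fibroblast markers were 182000 to 294300 in follistatin-treated cells and 134100 to 184600 in untreated cells. Col1a2 among them was at 0.72 ± 0.47 on the probe used and at -0.40 on its other probe, and Dcn was at 0.41 and -0.26. Their part in the laminin and protease ratios was not tested.

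The scaffold of utrophin, dystrophin and their partners had a median of -0.022 over 7 genes. Dmd, dystrophin, was at 0.33 ± 0.51 (SD, n = 4) on the probe used, but its 3 tested probes ran from -2.36 to 0.33. Utrn, utrophin, was at 0.21 ± 0.38, with 5 probes from -1.08 to 0.21. Plec, plectin, was at -0.81 ± 1.40, from -2.43 on replicate 3 to 0.71 on replicate 1. Probes of 1 gene thus disagreed by more than the arrays did for dystrophin.

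Genes of the neuregulin pathway and of synaptic transcription, which raise receptor genes in nuclei under the nerve, had a median of 0.12 over 9 genes. Etv5, an ETS transcription factor, was at 0.51 ± 1.47 (SD, n = 4), from 1.56 on replicate 3 to -1.57 on replicate 4. Gabpa, the ETS subunit of GA-binding protein, was at 0.45 ± 0.12 and higher on 4 of 4 arrays, with 3 probes from -0.060 to 0.45. Erbb4, a neuregulin receptor, was at -0.11 ± 0.30 and Etv1 at -0.066 ± 0.47. Of the partners of acetylcholinesterase, P4hb, a subunit of the collagen prolyl hydroxylase, was at 0.42 ± 0.80 and Prima1, the membrane anchor of the enzyme in nerve cells, at -0.081 ± 0.64. Bche, the related butyrylcholinesterase, was not tested because its probe was near background.

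Among 11 tested relatives of Lrp4 in the low density lipoprotein receptor family, the median was 0.072. Of these, 2 were higher on 4 of 4 arrays and 1 was lower, beside 14.2% and 13.3% of all genes. Lrp1, an endocytic receptor, was at 0.63 ± 0.62 (SD, n = 4), with its other probe at -1.08, and Lrp8, a reelin receptor, was at 0.63 ± 0.17, its 3 probes spanning 0.18 to 0.63. Lrp3 was at -0.79 ± 0.21 by processed signals and at -0.040 by normexp and loess, and Vldlr, the very low density lipoprotein receptor, at -0.36 ± 0.55. Of the ligands and inhibitors read through Lrp4, Lrp5 and Lrp6, Dkk2, a secreted Wnt inhibitor, was at 1.29 (SE 0.21, limma adjusted p = 0.102), higher on 4 of 4 arrays, but at 0.49 by normexp and loess. Apoe, a lipoprotein ligand, was at 0.30 ± 0.53, Wnt9a at -0.31 ± 0.28 and Wnt11, a Wnt that binds MuSK in zebrafish, at -0.74 (SE 0.18, limma adjusted p = 0.119), lower on 4 of 4 arrays. Wnt11 was at -0.41 by normexp and loess, Mmp3 at 0.64, Lrp8 at 0.30, Etv5 at 0.19 and Dmd at 0.12.

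**Figure D5:**
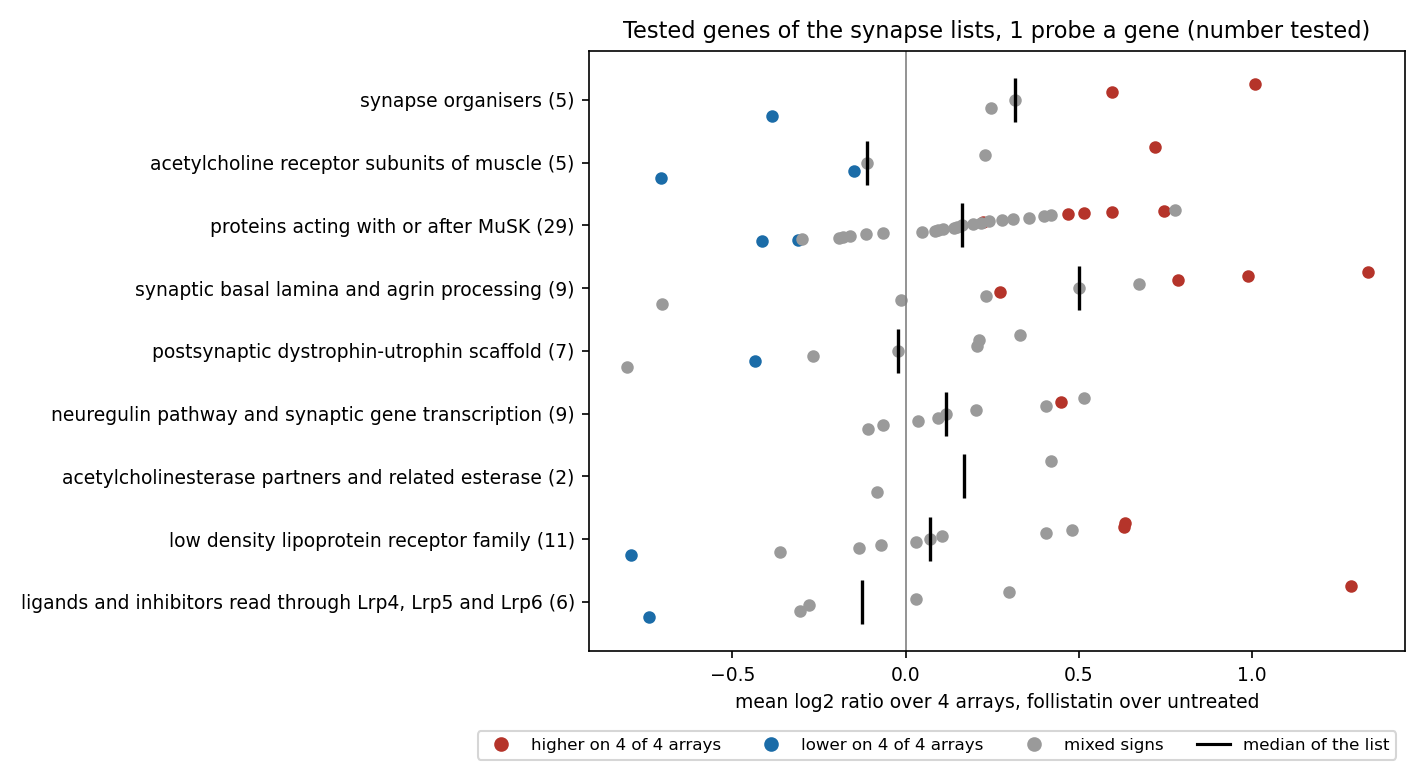
Each point is 1 tested gene, placed by its mean log2 ratio of follistatin over untreated on the horizontal axis, with 1 row per list and the synapse organisers on top. Red points were higher and blue points lower on 4 of 4 arrays, grey points had mixed signs, and the black bar is the median of the list. The basal lamina and agrin-processing row has its median at 0.50, and the receptor subunits lie on both sides of 0.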

How the data were processed

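Each sample was 1 two-colour Agilent array of follistatin over untreated C2C12 RNA. The authors read spot intensity with Agilent Feature Extraction, 10.7.3.1 per the submitters' processing notes and 10.10.1.1 for replicate 4 per the file headers. In the deposited processed intensity, per the file headers, the software had subtracted background and balanced the dyes array by array. The log10 ratio that the authors deposited, Cy5 over Cy3, was read only for its direction, and the other deposited columns used were the error of a spot's ratio and the flags. The authors' deposited table of log2 values matched log2 of processed Cy3 over Cy5 in the scanner files (r = 1 and slope 1 over 41174 probes); its column medians were -0.162, 0.171, 0.133 and 0.107 so its scale, centring and direction are known.

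Here the log2 ratio of processed Cy3 over processed Cy5 signal was taken per probe, without control spots (43379 of 45018 spots remained) or outlier spots; 0 spots were saturated. Medians of tested probes were -0.018 to 0.030 per array. A probe was tested if one channel was well above background on 3 or 4 arrays. Ratios were tested against 0 with limma 3.58.1 in R 4.3.3 (lmFit, eBayes, Benjamini-Hochberg over 27016 probes, threshold 0.05). The step was checked on simulated ratios. The simulated arrays were independent of each other, so the check does not cover likeness between replicates. Alternatives were normexp (offset 50) on median signals with loess (span 0.3) or median centring, other filters, array subsets, slide as a random block and the methods' t-test. The brightest tested probe stood for a gene in lists. Names came from the annotation in the file of replicate 4, updated through RefSeq (GRCm38.p6, names only): 27479 probes by accession and 6157 by symbol. Named genes are all synapse organisers, the 2 highest and 2 lowest of each other list, and the 5 genes nearest to Lrp4. The result of 1 gene that this rule names is not reported here. Genes and lists were chosen with earlier results of these data known.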

Additional observations from a re-analysis of the deposited data

Results flagged for a closer look

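Among 24 sets of 4 array values, the ratio and both channels of each of the 8 tested synapse organiser probes, 2 had 1 array far from the other 3; chance gives about 1 in 20. The Rapsn log2 ratio was 1.55 on replicate 1, against -0.24 to -0.16 on the others, and its untreated signal there was 2320 against 5248 to 6571. The log2 follistatin signal of the faint Lrp4 probe 2 was 5.13 on replicate 4, a signal of 35.01 against 40.4 to 41.18 on the others.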

How the results depend on the processing

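The count of probes that limma called, 2 with the reported processing, was 0 with normexp and loess, 0 with normexp and median centring, 0 where both channels had to be well above background on every array, 0 with replicates 2 and 3 averaged, 0 with replicates 1 and 4 alone, and 0 to 0 when each replicate was left out. It was 2 with median centring, without the filter, with 1 probe a gene and with slide as a random block; the methods' t-test on separate channels, with no replicate block, called 3, and 2 past 1.6-fold. Pathway genes called stayed at 0 in every alternative run. The count of synapse organiser probes of 1 sign, 3 of 8, was 2 with normexp and median centring, 5 of 12 without the filter, and 3 to 7 when each replicate was left out. With fewer arrays, 1 sign is more common among all tested probes. Their share was 28.3% on 4 arrays, 51.1% within slide 1, where the count was 7, and 44.5% without replicate 1. Of the means, Rapsn was -0.19 without replicate 1; Lrp4 probe 2 was -0.028 with normexp and loess, -0.055 with normexp and median centring, -0.18 without replicate 1 and -0.0064 with replicates 1 and 4 alone; the near-background Colq and Agrn probe 2 were 0.013 and -0.0099 with normexp and loess. Lrp4 probe 1 stayed between 0.97 and 1.04 in all alternatives run. The causes were not tested. Signal over background limits Colq, Ache and the faint Agrn probes, and 4 arrays limit every spread.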
